A study of Rattus norvegicus with 12 samples.

Results

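The mRNA of 10 genes linked to the G1/S switch was to be followed in rat heart cell cultures. These were the E2F transcription factors E2f1, E2f2, E2f3, E2f7 and E2f8, the cyclins Ccnd1, Ccne1 and Ccne2, the transcription factor Mybl2 and the chromatin protein Hmga2. They were matched by gene symbol to the probes of the array, and 9 of the 10 were measured among 18166 named genes, each by 1 probe. E2f2 had no probe with that single symbol and is not analysed here. Mybl2 and Hmga2 were picked because their values were higher at 70 min, so their values in any comparison that uses the control or 70 min arrays are given as a description without a test. Counts of changed genes therefore cover the other 7, except between 4 h and 8 h, where all 9 were tested.

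A cell leaves G1 when D-type cyclins, induced by growth signals, activate CDK4 and CDK6, which phosphorylate the retinoblastoma protein and its relatives and release E2F factors from repression. The activating factors E2F1, E2F2 and E2F3 then switch on cyclin E, the genes of DNA replication, and also MYBL2 and the atypical repressors E2F7 and E2F8, which later turn the same programme down. MYBL2 joins the MuvB complex and activates genes of G2 and mitosis. HMGA2 binds AT-rich DNA, is abundant in embryonic tissue and is restrained in most adult tissue by let-7 microRNAs. Heart muscle cells largely leave the cycle soon after birth, whereas other cells of the heart can divide in culture.

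The cells were primary rat cells labelled as wild-type cardiomyocytes, kept in a medium with fetal bovine and horse serum. One-colour whole-transcript arrays measured control cells and cells exposed to the peroxynitrite donor SIN-1, which gives off nitric oxide together with superoxide, for 70 min, 4 h or 8 h, with 3 arrays in each of 4 groups. The labels give no vehicle or culture time for the control, no dose, and no age or sex of the animals; all 3 times were compared with the same 3 control arrays. The arrays are called biological triplicates without word on separate cultures, so p-values measure the spread between these samples. Values are log2 expression, errors are SDs over 3 arrays or the SEs of a limma model fitted to all 12 arrays, and a gene was called changed at a Benjamini-Hochberg adjusted p under 0.05. The median log2 fold change over all genes was 0.03 at 70 min and 0.01 at 4 h and at 8 h.

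The labelled cell type was set against marker genes, and most of the defining cardiomyocyte markers read low. Of 12 cardiomyocyte markers, 9 had a mean level below the median of all named genes (5.75), among them Myh7 at 3.57, Myh6 at 3.78 and Ttn at 4.49, where the median of the probes without a listed gene was 4.33. Pln (7.94), Nkx2-5 (5.98) and Tnnt2 (5.84) lay above it. Of 11 fibroblast markers only 3 lay below it, and Col1a1 reached 12.77 and Postn 11.62. All 6 measured endothelial markers and 8 of 9 leukocyte markers lay below, whereas 3 of 4 smooth muscle markers lay above. Probes of different genes differ in affinity, so these positions are a rough description and not a measure of how many cells of a type were present. In bulk RNA, fewer cells of a type and less RNA per cell cannot be told apart. Arrays of a group correlated at 0.991 to 0.995 across genes, and 3 arrays had the highest medians: 70 min replicate 2 (5.11), 70 min replicate 3 (5.12) and 4 h replicate 3 (5.09). The other 9 lay between 4.98 and 5.05.

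**Figure D1:**
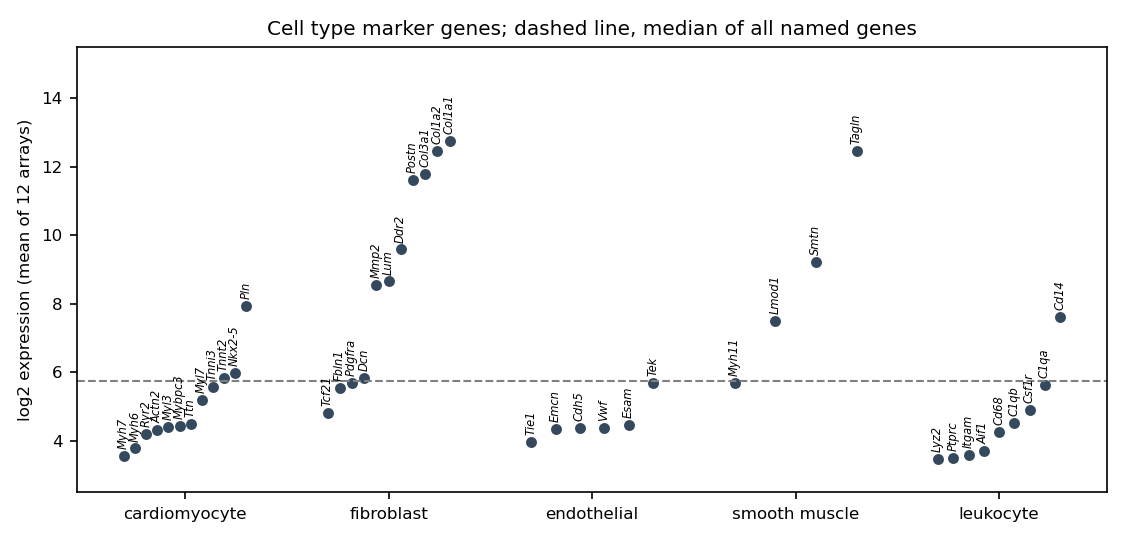
Marker genes of 5 cell types, each point the mean log2 expression of a gene over 12 arrays (vertical axis) and each column a cell type. Most cardiomyocyte points lie under the dashed line at 5.75, the median of all named genes, and most fibroblast points above it.

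E2F factors bind short sites close to the start of the genes they control, and several genes of the E2F and cyclin E families are themselves known targets. The RefSeq table of promoters (assembly GRCr8) listed 5 of the 9 measured genes, and the 250 bases before the start were searched on both strands. An E2F site was taken as TTTCCCGC, TTTCGCGC, TTTGCCGC or TTTGGCGC, and an E2F core as GGCGGGA, which can overlap a site. A site was found in 1.73% and a core in 9.04% of all 33469 promoters, against 1 and 3 of the 5. The promoters of the 3 genes with a match and of Hmga2, which has none, are shown 5′ to 3′ on the gene's strand, ending at the base before the start, with sites and cores in capitals. They lie at chr3:172124555-172124804 (Mybl2, plus strand), chr17:34810166-34810415 (E2f3, plus strand), chr1:99927910-99928159 (Ccne1, minus strand) and chr7:57880342-57880591 (Hmga2, minus strand).
Mybl2: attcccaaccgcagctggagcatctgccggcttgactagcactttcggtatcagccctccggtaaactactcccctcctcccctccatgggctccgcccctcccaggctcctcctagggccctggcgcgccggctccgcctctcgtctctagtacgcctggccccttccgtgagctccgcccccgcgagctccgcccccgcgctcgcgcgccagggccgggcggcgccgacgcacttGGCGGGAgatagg
E2f3: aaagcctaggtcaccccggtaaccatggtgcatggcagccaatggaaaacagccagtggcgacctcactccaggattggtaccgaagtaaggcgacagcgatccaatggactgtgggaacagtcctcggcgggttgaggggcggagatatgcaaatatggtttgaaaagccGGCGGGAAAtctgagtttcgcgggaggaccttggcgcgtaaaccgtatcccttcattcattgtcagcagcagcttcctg
Ccne1: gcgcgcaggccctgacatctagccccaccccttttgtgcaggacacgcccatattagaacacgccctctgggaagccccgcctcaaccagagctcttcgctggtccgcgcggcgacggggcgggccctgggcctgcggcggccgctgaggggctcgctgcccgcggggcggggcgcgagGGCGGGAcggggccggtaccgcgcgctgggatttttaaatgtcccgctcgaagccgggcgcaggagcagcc
Hmga2: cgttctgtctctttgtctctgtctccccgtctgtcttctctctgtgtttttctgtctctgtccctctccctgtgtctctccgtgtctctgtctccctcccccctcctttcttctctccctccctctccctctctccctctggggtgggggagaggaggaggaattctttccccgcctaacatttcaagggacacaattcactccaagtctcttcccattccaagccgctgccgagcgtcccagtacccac
The core of Mybl2 lies at -13 to -7 from the start and that of Ccne1 at -71 to -65. In E2f3 the core at -79 to -73 overlaps a site on the opposite strand at -78 to -71. The 250 bases of Hmga2 hold 72.8% pyrimidines on the gene's strand, a higher share than in 99.8% of promoters, with an unbroken run of 50. No match was found for E2f7 either, which says only that these letters are not in this window.

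The 70 min time was that at which these genes stood farthest above control. Of the 7 genes not picked by their values, 5 rose (Ccne2, E2f7, Ccnd1, Ccne1 and E2f8) and none fell, where 14.6% of all genes were called, 6.76% as higher. The 7 were still chosen with earlier results of these data known, so these shares are a description and not independent support. All 7 had their 3 arrays above the 3 control arrays, as 16.8% of all genes did. Their median log2 fold change was 0.51, and their range 0.32 to 0.99.

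The activating factors E2f1 and E2f3 stood closest to control. E2f1 (probe 17778476) read 5.86, 5.61 and 5.75 in the control arrays and 5.96, 6.07 and 6.15 at 70 min. The difference was 0.32 ± 0.11 (SE) on the log2 scale, 1.25-fold, with a limma adjusted p of 0.0647, so it was not called although the arrays did not overlap. E2f3 (probe 17715465) read 6.17, 6.21 and 6.23 in control and 6.70, 6.33 and 6.55 at 70 min. Its difference of 0.32 ± 0.12 (SE) had an adjusted p of 0.0853 and was not called either. Adjusted p ran from 0.038 to 0.507 for E2f1 and from 0.0391 to 0.233 for E2f3 over 23 other settings of the analysis; E2f1 passed without 70 min replicate 1 (0.0462) and E2f3 without 70 min replicate 2 (0.0431).

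The atypical repressors E2f7 and E2f8 both rose. E2f7 (probe 17828081) went from 5.98, 6.11 and 5.83 in control to 6.87, 6.60 and 6.60, a rise of 0.72 ± 0.13 (SE), 1.64-fold, with an adjusted p of 0.000958. E2f8 (probe 17633312) went from 5.80, 5.87 and 6.13 to 6.62, 6.37 and 6.32, a rise of 0.50 ± 0.13 (SE), 1.41-fold, with an adjusted p of 0.017. In both genes every 70 min array stood above every control array, and replicate 1 was the highest of the 3. The call on E2f7 held in all 23 other settings (adjusted p up to 0.0117). That on E2f8 was lost without control replicate 1 (0.0878), control replicate 2 (0.064) or 70 min replicate 1 (0.0597), in a range of 0.00918 to 0.0878.

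Cyclin D1 had the smallest spread of the 9 genes in control. Ccnd1 (probe 17638903), the cyclin that couples growth signals to CDK4 and CDK6, read 8.61, 8.64 and 8.61 in control and 9.25, 9.39 and 9.35 at 70 min. That is 8.62 ± 0.02 against 9.33 ± 0.07 (SD, n = 3), a rise of 0.71 ± 0.07 (SE) with a limma adjusted p of 1.26e-06. Of the E-type cyclins, which activate CDK2 at the G1/S boundary, Ccne1 (probe 17632171) read 6.89, 6.81 and 7.04 in control and 7.47, 7.49 and 7.31 at 70 min. It rose by 0.51 ± 0.13 (SE), 1.42-fold, with an adjusted p of 0.0114. Ccne2 (probe 17797253) read 5.86, 5.84 and 6.08 in control and 7.34, 6.49 and 6.91 at 70 min, a rise of 0.99 ± 0.19 (SE), 1.98-fold, with an adjusted p of 0.00132. Its 70 min arrays spread over the widest range of these genes at that time, yet the lowest of them stood above every control array. The calls on Ccnd1 and Ccne2 held in all 23 other settings, and that on Ccne1 was lost without control replicate 2 (0.0551; range over the settings 0.00199 to 0.113).

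Mybl2 and Hmga2, chosen for this difference, are described only. Mybl2 (probe 17768650) read 6.27, 6.30 and 6.66 in control and 7.66, 7.84 and 7.76 at 70 min, a difference of 1.35 ± 0.11 (SE) or 2.54-fold. Hmga2 (probe 17836143) read 6.32, 5.63 and 6.15 in control and 7.54, 7.14 and 7.47 at 70 min, 1.35 ± 0.15 (SE) or 2.55-fold. The 70 min arrays of both lay above all control arrays, and the control arrays of Hmga2 were the most scattered of the 9 genes, with an SD of 0.36.

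**Figure D2:**
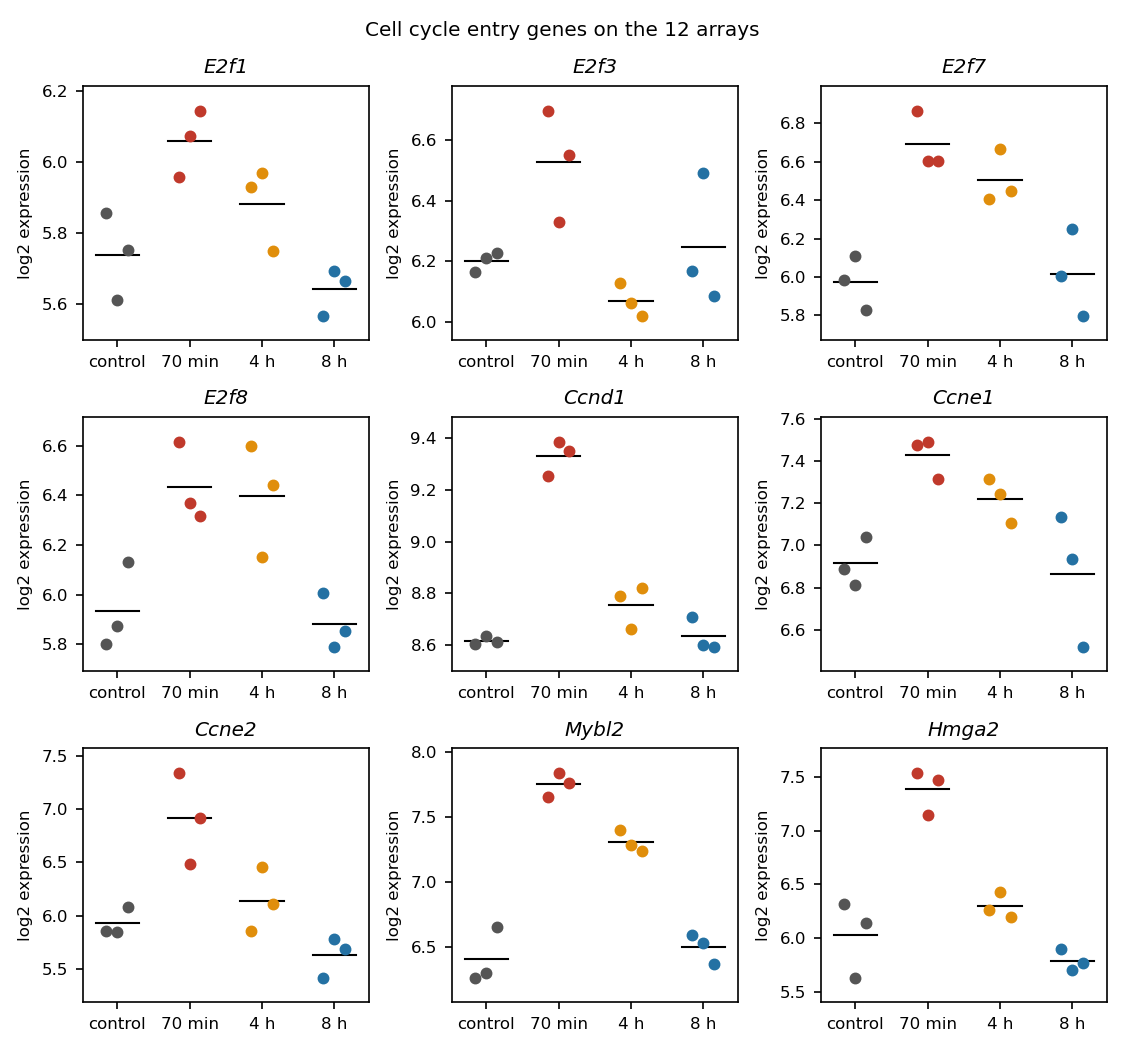
Log2 expression (vertical axis) of the 9 measured genes on each of 12 arrays, with 1 panel per gene, points for the 3 arrays of control, 70 min, 4 h and 8 h, and a line at the group mean. The 70 min points lie above the control points in every panel, whereas the 8 h points overlap the control points in every panel but that of Ccne2.

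After 4 h fewer of the genes stood apart from control. Of the 7 tested, only E2f7 was called, where 3.85% of all genes were called and 2.08% as higher, and the median log2 fold change of the 7 was 0.21. The 4 h arrays of E2f7 read 6.40, 6.66 and 6.45, a rise of 0.53 ± 0.13 (SE), 1.45-fold, with a limma adjusted p of 0.027. E2f8 read 6.60, 6.15 and 6.44, 0.46 ± 0.13 (SE) above control with an adjusted p of 0.0673, so the atypical pair stood at nearly the same distance from control, one inside and the other outside the threshold. The E2f7 call was lost without control replicate 1 (0.0899), control replicate 3 (0.129) or 4 h replicate 2 (0.102), in a range of 0.0166 to 0.129 over 23 settings. E2f8 passed without 4 h replicate 2 (0.025; range 0.025 to 0.267).

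None of the cyclins or activating E2Fs was called against control at 4 h. Ccnd1 read 8.79, 8.66 and 8.82, 0.14 ± 0.07 (SE) above control with an adjusted p of 0.334. Ccne1 stood at 7.31, 7.24 and 7.11 and Ccne2 at 5.85, 6.46 and 6.11, with differences of 0.31 and 0.21 and adjusted p of 0.251 and 0.666. E2f1 at 5.93, 5.97 and 5.75 differed by 0.14 (adjusted p 0.614). E2f3 at 6.13, 6.06 and 6.02 was the only one of the 7 with its 4 h arrays all below control, by -0.13 ± 0.12 (SE) with an adjusted p of 0.688. The arrays of 4 of the 7 lay wholly above control, as in 11.6% of all genes.

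Mybl2 and Hmga2 are again described only. At 4 h Mybl2 read 7.40, 7.29 and 7.24, still 0.90 ± 0.11 (SE) or 1.87-fold above control, with no overlap. Hmga2 read 6.27, 6.43 and 6.20, 0.26 ± 0.15 (SE) above control, and its arrays overlapped the control arrays.

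The change from 70 min to 4 h was tested directly. Of the 7 genes, 3 fell (Ccne2, Ccnd1 and E2f3), where 7.63% of all genes were called and 3.15% as lower. Ccnd1 fell by 0.57 ± 0.07 (SE; limma adjusted p 2.35e-05), Ccne2 by 0.77 ± 0.19 (0.0149) and E2f3 by 0.46 ± 0.12 (0.0269). The differences of E2f8 (-0.04, adjusted p 0.915), E2f7 (-0.18, 0.474), E2f1 (-0.18, 0.416) and Ccne1 (-0.20, 0.409) were not called. As a description, Hmga2 differed by -1.09 and Mybl2 by -0.44 between these times. The E2f3 call was lost without 70 min replicate 1 (0.08) or 3 (0.093) or 4 h replicate 2 (0.0761) or 3 (0.0675), in a range of 0.0117 to 0.109. The Ccne2 call was lost without 70 min replicate 1 (0.0539) or 3 (0.0528) or 4 h replicate 1 (0.0746), in a range of 0.00294 to 0.0746.

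Mybl2, E2f7 and E2f8 fell from 4 h to 8 h. This comparison used neither group that picked Mybl2 and Hmga2, and 3 of the 9 genes fell (Mybl2, E2f8 and E2f7), where 3.51% of all genes were called and 1.54% as lower. Mybl2 read 6.59, 6.53 and 6.37 at 8 h, a fall of 0.81 ± 0.11 (SE) from 4 h, 1.76-fold, with a limma adjusted p of 0.000294 that stayed under 0.05 in all 23 other settings. E2f8 at 6.01, 5.79 and 5.85 fell by 0.51 ± 0.13 (SE; adjusted p 0.0414). E2f7 at 6.004, 6.25 and 5.80 fell by 0.49 ± 0.13 (SE; 0.0463). Hmga2 at 5.90, 5.71 and 5.77 differed by -0.50 ± 0.15 (SE) with an adjusted p of 0.087 and was not called, although its arrays did not overlap those of 4 h. Ccne2 differed by as much as the called E2F genes, -0.51 ± 0.19 (SE), with a larger error and an adjusted p of 0.171, and its arrays did not overlap those of 4 h either.

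Both E2F calls between 4 h and 8 h were near the threshold. That on E2f7 held in 8 of 23 other settings and was lost with control replicate 1 left out (adjusted p 0.0673), or 2 (0.0543) or 3 (0.0548), 70 min replicate 2 (0.054) or 3 (0.0571), 4 h replicate 1 (0.0601), 2 (0.164) or 3 (0.0814), and 8 h replicate 1 (0.116) or 3 (0.192). That on E2f8 held in 11 and was lost without control replicate 1 (0.0537) or 2 (0.0559), 70 min replicate 2 (0.0504), 4 h replicate 1 (0.156) or 3 (0.116), and 8 h replicate 1 (0.0534), 2 (0.18) or 3 (0.114). Hmga2 passed without control replicate 2 (0.0317; range 0.0314 to 0.287), and Ccne1 (-0.36, adjusted p 0.164) without 8 h replicate 1 (0.0475; range 0.0475 to 0.516).

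At 8 h none of the 7 genes was called against control by limma, and none had an unadjusted p under 0.05; 0.0275% of all genes were called. Their log2 fold changes ran from -0.30 (Ccne2, adjusted p 0.937) to 0.05 (E2f3, 0.994), with a median of -0.05. Ccne2 read 5.42, 5.78 and 5.69, and its 3 arrays all lay below the control arrays, as in 5.24% of all genes. Mybl2 stood 0.09 above control, and Hmga2 differed by -0.24; both overlapped the control arrays. Set against 70 min, 6 of the 7 fell, where 16% of all genes were called and 6.43% as lower. Ccne2 had the largest fall of the 7, 1.28 ± 0.19 (SE; 2.44-fold, adjusted p 0.000115), and Ccnd1 fell by 0.70 ± 0.07 (SE; 1.38e-06). E2f7 fell by 0.67 ± 0.13 (SE; 0.00144), Ccne1 by 0.56 ± 0.13 (0.00533), E2f8 by 0.55 ± 0.13 (0.00814) and E2f1 by 0.42 ± 0.11 (0.0152). E2f3 differed by -0.28 (adjusted p 0.137). The E2f1 call was lost without 70 min replicate 3 (0.0699) or 8 h replicate 1 (0.0586), in a range of 0.00789 to 0.265, and E2f3 passed without 8 h replicate 2 (0.0487; range 0.0487 to 0.389).

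**Figure D3:**
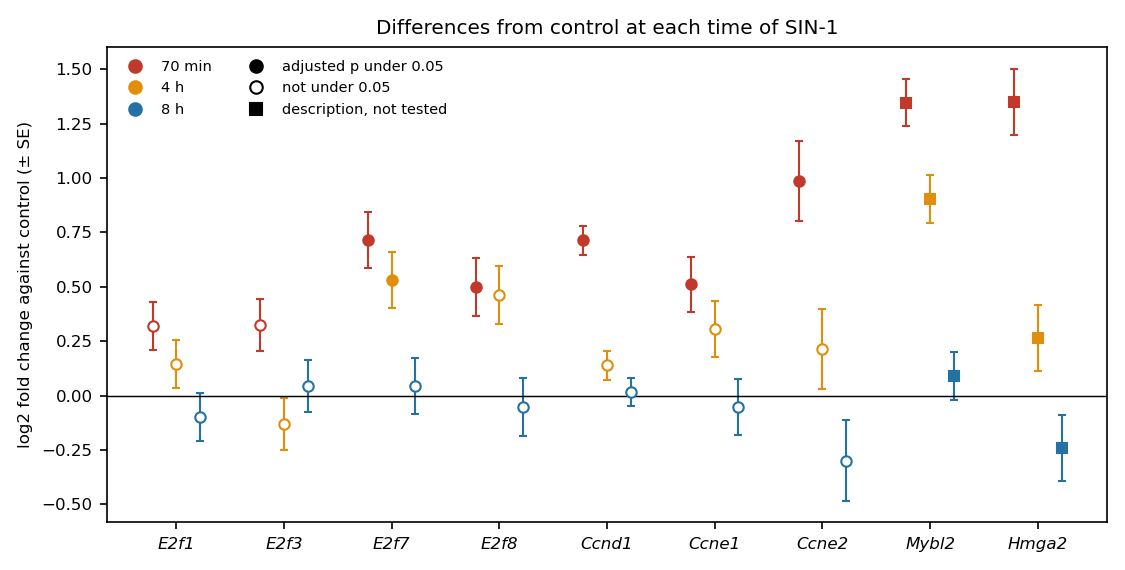
Log2 fold change against control with its SE (vertical axis) for each of 9 genes at 70 min, 4 h and 8 h. Filled circles have an adjusted p under 0.05, open circles do not, and squares are Mybl2 and Hmga2, which were not tested here; at 4 h E2f7, E2f8 and Mybl2 lie farthest above 0, and at 8 h all 9 lie between -0.30 and 0.09.

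The genes that E2F factors are known to switch on were described from a list of 40. It and the lists below were chosen with earlier results of these data known, so their counts are a description. Of the 40 genes, 35 were measured. At 70 min 23 rose and none fell (0 lower at an unadjusted p under 0.05), where 6.76% of all genes were called as higher, with a median of 0.47 and all 35 above 0, from 0.02 (Dut) to 1.16 (Dtl). At 4 h 18 rose and none fell (likewise 0), where 2.08% of all genes were called as higher, with a median of 0.39. Dtl, a substrate receptor of the CRL4 ubiquitin ligase, rose by 1.16 ± 0.10 (SE) at 70 min and 0.88 ± 0.10 at 4 h (adjusted p 4.48e-07 and 6.07e-05). Mcm5, a subunit of the replicative helicase, rose by 1.06 ± 0.08 and 0.72 ± 0.08 (adjusted p 2.94e-07 and 8.87e-05), and Fen1, the flap endonuclease, by 0.99 ± 0.11 and 0.58 ± 0.11 (1.02e-05 and 0.00502).

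Cdc6, which loads the helicase onto origins, followed another course. It read 5.31, 5.14 and 5.11 in control, 6.24, 5.99 and 6.20 at 70 min and 5.27, 5.30 and 5.23 at 4 h. It rose by 0.96 ± 0.12 (SE) at 70 min (adjusted p 2.53e-05) and stood 0.09 from control at 4 h (0.811), having fallen by 0.87 ± 0.12 between them (0.000124). Cyclin D1 and Ccne2 had the same sequence of calls, and E2f7, Dtl, Mcm5 and Fen1 were called at both times. From 70 min to 4 h 4 of the 35 were called lower, Cdc6, Fen1 (-0.40), Mcm5 (-0.34) and Mcm7 (-0.30), where 3.15% of all genes were. The last 3 lost that limma call with the compared groups alone (adjusted p 0.111, 0.0615 and 0.0947) or with arrays centred (0.108, 0.167 and 0.217). Fen1 also lost it without 70 min replicate 2 (0.0755) or 3 (0.127) or 4 h replicate 2 (0.122) or 3 (0.0937). Mcm5 lost it without 70 min replicate 1 (0.0557) or 2 (0.0604) or 4 h replicate 3 (0.0741). Mcm7 lost it without 70 min replicate 2 (0.0944) or 3 (0.0879) or 4 h replicate 2 (0.0656) or 3 (0.103). Rfc4, a clamp loader subunit, and Tyms, thymidylate synthase, were called at 4 h (0.44 ± 0.12 and 0.34 ± 0.08, SE; adjusted p 0.0478 and 0.0249), after 0.28 and 0.21 at 70 min (0.122 and 0.107). Neither differed by a call between 70 min and 4 h (adjusted p 0.526 and 0.387). With each array's median as a covariate both passed at 70 min (0.00679 and 0.0268), Rfc4 also after further quantile normalization (0.0281) and Tyms without 70 min replicate 2 (0.0428). The Rfc4 call at 4 h was lost without control replicate 2 (0.253) or 3 (0.0955), 70 min replicate 2 (0.0508) or 3 (0.0595), 4 h replicate 1 (0.151) or 2 (0.14) or any 8 h array (0.051, 0.0715 and 0.0567). That on Tyms at 4 h was lost without control replicate 1 (0.142) or 2 (0.0853) or 4 h replicate 1 (0.0511) or 2 (0.103).

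By 8 h no target was called against control in limma, where 0.0275% of all genes were called, and the median was 0.01. None was higher and 1 was lower at an unadjusted p under 0.05. That 1 was Cdc6 at -0.52, which was called with array weights (adjusted p 0.025). Between 4 h and 8 h 19 of the 35 fell, where 3.51% of all genes were called and 1.54% as lower, with a median of -0.41 against -0.01 over all genes. The count was 12 without 4 h replicate 1 and 11 without 8 h replicate 2, and 12 when the arrays of those times were fitted alone. Over all genes 637 were called, and 504, 299 and 330 in those settings.

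Promoters of 31 of the 35 measured targets were in the RefSeq table. A site or core was found for 17 of the 31 genes (54.8%), against 10.2% of all promoters. A listed gene was counted if any of its promoters matched, whereas all promoters were counted singly, so these shares are not in like units. Of the targets named above, Dtl, Mcm5, Mcm7, Rfc4, Tyms and Dut had a match. The last 60 bases or so before the start are shown for Dtl, Mcm5, Rfc4 and Tyms, to set beside the promoters of Mybl2, E2f3 and Ccne1. They lie at chr13:105685922-105685981 (Dtl, minus strand), chr19:13488753-13488812 (Mcm5, plus strand), chr11:91254213-91254272 (Rfc4, plus strand) and chr9:120776087-120776146 (Tyms, minus strand, ending 4 bases before the start).
Dtl: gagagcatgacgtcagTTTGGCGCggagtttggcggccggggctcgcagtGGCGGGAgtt
Mcm5: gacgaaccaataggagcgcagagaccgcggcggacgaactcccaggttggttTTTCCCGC
Rfc4: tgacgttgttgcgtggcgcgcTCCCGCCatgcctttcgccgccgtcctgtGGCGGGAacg
Tyms: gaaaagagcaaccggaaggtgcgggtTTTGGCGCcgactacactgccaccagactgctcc
Capitals mark sites and cores, as in the longer promoters. Dtl and Tyms share the letters TTTGGCGC, and Mcm5 ends in TTTCCCGC directly before the start.

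Genes of G2 and mitosis, known targets of MYBL2 with MuvB and of FOXM1, were listed as 27, and 23 were measured. At 70 min 1 rose, Ccna2 (0.41 ± 0.08, SE; adjusted p 0.00251), the cyclin of S phase and G2, where 6.76% of all genes were called as higher, and the median was 0.08. The largest difference was downward. Cenpf, a kinetochore protein, stood at -0.69 ± 0.30 (SE; adjusted p 0.139) and the proliferation marker Mki67 at -0.36 ± 0.22 (0.308), with no overlap between the arrays. Neither was called, but both were with the compared groups alone (0.0244 and 0.0301), and Cenpf with array weights (0.0498). At 4 h 3 rose, Bub1b (0.43 ± 0.11; 0.0299), Ccna2 (0.31 ± 0.08; 0.0465) and Plk1 (0.29 ± 0.07; 0.027), all with roles in mitosis or its approach, where 2.08% of all genes were called as higher, and the median was 0.21. None of the 3 calls at 4 h held without control replicate 1 (adjusted p 0.135, 0.0646 and 0.0733), control replicate 2 (0.133, 0.183 and 0.154), 4 h replicate 1 (0.15, 0.109 and 0.133) or 4 h replicate 2 (0.0984, 0.136 and 0.0621), in that order of genes. The Ccna2 call at 4 h was also lost without control replicate 3 (0.156), 70 min replicate 2 (0.053), 4 h replicate 3 (0.0643) or 8 h replicate 2 (0.0671) or 3 (0.055). At 8 h none was called by limma (1 higher and 2 lower at an unadjusted p under 0.05), where 0.0275% of all genes were called. The median was 0.03. Promoters of 19 of the 23 measured genes were in the RefSeq table. The letters of the cell cycle homology region, TTTGAA or TTCGAA, were found in 12 of the 19 (63.2%), against 4 of 31 G1/S targets (12.9%) and 17.4% of all promoters. Again listed genes were counted by any of their promoters and all promoters singly. An E2F site or core was found in 4 of the 19 (21.1%). E2f3 was the only one of the 5 promoters here with that motif, at -90 to -85.

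**Figure D4:**
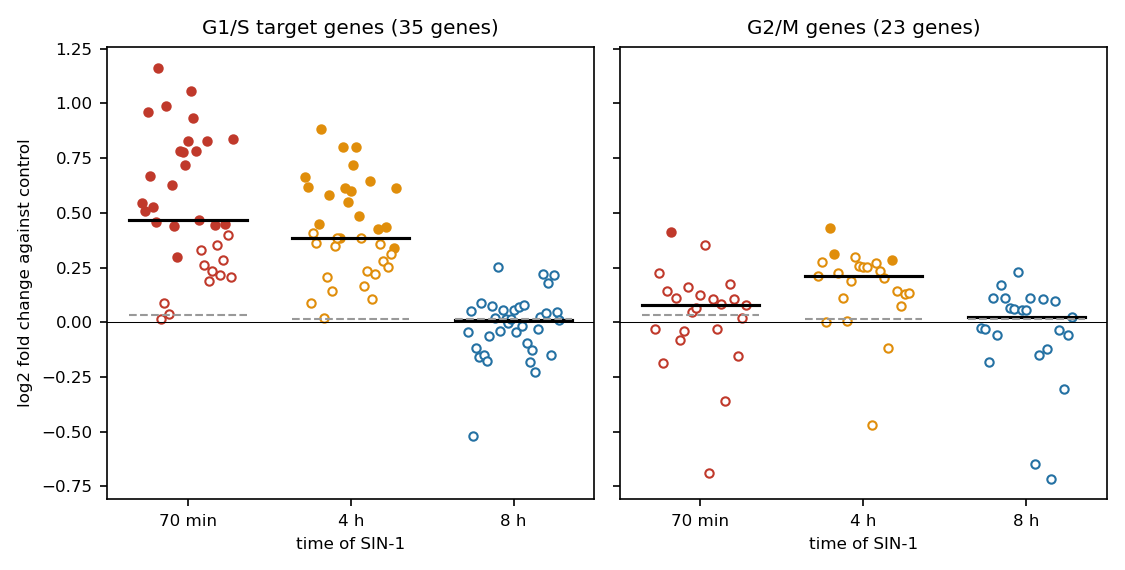
Log2 fold change against control (vertical axis) at 70 min, 4 h and 8 h for 35 G1/S target genes (left) and 23 G2/M genes (right), each point a gene, filled where its adjusted p was under 0.05. Black lines are list medians (0.47, 0.39 and 0.01 on the left; 0.08, 0.21 and 0.03 on the right) and dashed lines the medians of all genes.

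Regulators that act on E2F were listed as 24, and 21 were measured. At 70 min 3 rose and 4 fell, where 6.76% of all genes were called as higher and 7.81% as lower. Cdk2, the kinase partner of cyclin E, rose by 0.65 ± 0.10 (SE; adjusted p 0.00029), from 7.42, 7.19 and 7.40 in control to 7.94, 8.10 and 7.92. Tfdp1, the DNA-binding partner of E2F, rose by 0.47 ± 0.08 (0.000881), and E2f4, an E2F that mostly represses, by 0.30 ± 0.09 (0.0291).

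Among the genes that fell at 70 min were 2 pocket proteins, which hold E2F in check. Rb1 read 8.17, 8.20 and 8.28 in control and 7.74, 7.42 and 7.64 at 70 min, a fall of 0.62 ± 0.11 (SE; adjusted p 0.000958). Rbl2 read 7.80, 7.56 and 7.84 and 7.03, 7.04 and 7.08, a fall of 0.68 ± 0.10 (0.00011). In both the arrays did not overlap. Tfdp2, a second E2F partner, fell by 0.65 ± 0.19 (0.029), and Cdkn1b, the inhibitor p27 of CDK2, by 0.28 ± 0.07 (0.0153). The partners of cyclin D1 were not called: Cdk4 differed by -0.03 (adjusted p 0.794) and Cdk6 by 0.17 (0.203), and the related cyclin Ccnd2 by 0.08 (0.292). The Rb1 call was lost without the 3 arrays of highest median (0.101) and kept without any single array. The call on E2f4 was lost without any of control replicates 2 (0.108) and 3 (0.0937) and the 70 min replicates (0.0769, 0.0515 and 0.0622). Those on Tfdp2 (control replicates 1 and 3 and 70 min replicates 2 and 3; 0.0996, 0.0986, 0.135 and 0.0765) and Cdkn1b (control replicate 3 and 70 min replicates 2 and 3; 0.0902, 0.0566 and 0.0695) were likewise lost without single arrays.

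At 4 h 3 regulators rose and 1 fell, where 2.08% of all genes were called as higher and 1.77% as lower. Cdkn1a, the inhibitor p21, read 10.41, 10.35 and 10.38 in control and 10.88, 10.72 and 10.76 at 4 h, a rise of 0.41 ± 0.06 (SE; limma adjusted p 0.000315), after 0.13 at 70 min (0.121). Cdkn2b, the inhibitor p15 of CDK4 and CDK6, fell by 0.47 ± 0.08 (0.00286). Rbl1, a pocket protein that is itself an E2F target, rose by 0.49 ± 0.12 (0.0319) after 0.35 at 70 min (0.0662), and Cdk2 was still 0.39 ± 0.10 higher (0.0401). The Rbl1 call was lost without any single control array (0.133, 0.125 and 0.0583) or 4 h replicate 2 (0.128) or 3 (0.0836). The Cdk2 call was lost without any control array (0.0751, 0.209 and 0.0778), any 4 h array (0.0679, 0.138 and 0.062) or 70 min replicate 3 (0.0515). At 8 h none of the 21 was called in limma, where 0.0275% of all genes were called, and 0 of them had an unadjusted p under 0.05.

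The partners of Mybl2 also moved at 70 min. Of 7 measured genes, 5 of the MuvB core and MYB relatives and the associated Foxm1 and Dyrk1a, 3 rose and 1 fell, where 6.76% of all genes were called as higher and 7.81% as lower. Lin54 and Lin37 were the called genes among the 5. Lin54, the DNA-binding MuvB subunit, rose by 0.49 ± 0.10 (SE; adjusted p 0.00258) and stayed 0.70 ± 0.10 higher at 4 h (0.00055), when Mybl2 was also high. Foxm1, the factor that follows MYBL2 onto G2/M promoters, rose by 0.35 ± 0.09 (0.0183), and Dyrk1a, the kinase that assembles MuvB into its repressive form, by 0.33 ± 0.06 (0.00119). Lin37, another MuvB subunit, read 8.73, 8.68 and 8.68 in control and 8.08, 8.15 and 7.89 at 70 min, a fall of 0.66 ± 0.09 (5.9e-05). It stood -0.01 from control at 4 h (0.987). The Foxm1 call was lost without control replicate 2 (0.099) or 70 min replicate 2 (0.0694).

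**Figure D5:**
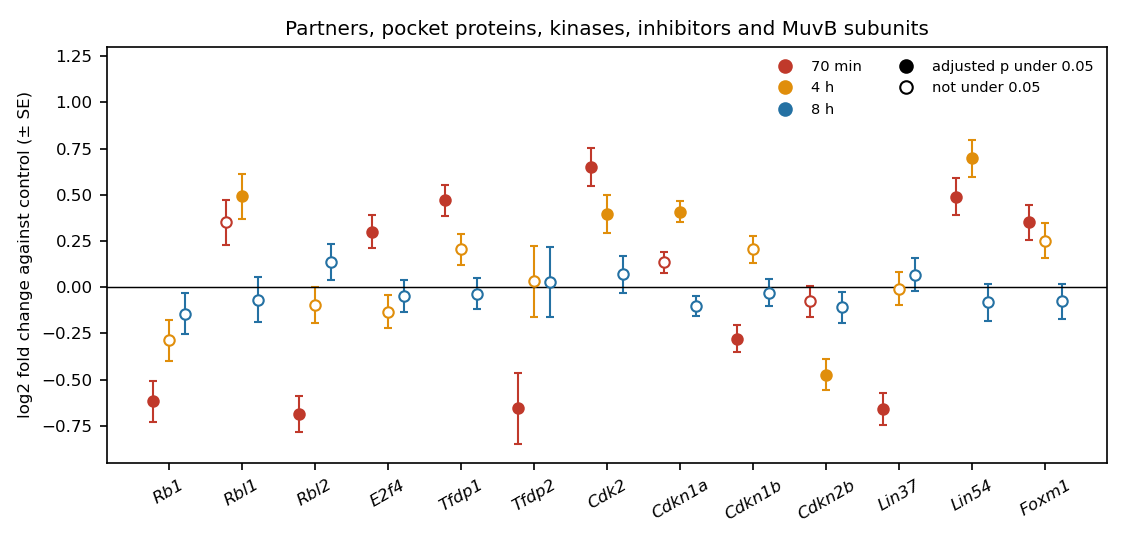
Log2 fold change against control with its SE (vertical axis) for 13 regulators of E2F and partners of Mybl2 at 70 min, 4 h and 8 h, filled where the adjusted p was under 0.05. At 70 min Rb1, Rbl2, Tfdp2 and Lin37 lie lowest (-0.62, -0.68, -0.65 and -0.66), and Cdk2 lies highest (0.65).

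Around Hmga2, 7 of 8 listed genes of its family, of LIN28 and of the IGF2 mRNA-binding proteins were measured. Igf2bp2, an mRNA-binding protein whose gene HMGA2 is known to activate, rose by 0.40 ± 0.07 (SE; adjusted p 0.000549) at 70 min, from 8.22, 8.21 and 8.27 to 8.64, 8.55 and 8.70. By 4 h it had fallen by 0.52 ± 0.07 (9.43e-05), over the interval in which Hmga2 differed by -1.09. Igf2bp2 was the only 1 of the 7 called at 70 min, where 14.6% of all genes were called and 6.76% as higher. From 70 min to 4 h 2 of the 7 were called lower, Igf2bp2 and Igf2bp1 (-0.30), where 3.15% of all genes were. The limma call on Igf2bp1 was lost with the replicate block (adjusted p 0.0602), with arrays centred (0.213) and with the compared groups alone (0.147). That call was also lost without any single control array (0.0682, 0.0615 and 0.0652), 70 min array (0.0909, 0.0863 and 0.112) or 4 h array (0.161, 0.0821 and 0.0543). Hmga1, the close relative, differed by 0.22 ± 0.09 (0.128) at 70 min.

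Factors that carry growth signals to the Ccnd1 gene were listed as 12, all measured. At 70 min 6 rose and 1 fell, where 6.76% of all genes were called as higher and 7.81% as lower. Etv5 (0.93 ± 0.15, SE; adjusted p 0.000477), Ets2 (0.75 ± 0.09; 2.59e-05) and Etv4 (0.46 ± 0.13; 0.0251) are ETS factors downstream of the ERK kinases, and Fosl1 (0.74 ± 0.12; 0.000286) is an AP-1 subunit. Myc, a growth factor-induced activator of cyclin and E2F genes, read 8.37, 8.33 and 8.15 in control and 7.72, 7.33 and 7.47 at 70 min, a fall of 0.78 ± 0.13 (0.000443), and was still 0.65 ± 0.13 lower at 4 h (0.00673). Ets1, another ETS factor, changed sign: it rose by 0.42 ± 0.10 at 70 min (0.00779) and was -0.41 ± 0.10 from control at 4 h (0.0262), a fall of 0.82 ± 0.10 between them (3.58e-05). At 4 h none of the 12 was called as higher by limma (3 at an unadjusted p under 0.05), where 2.08% of all genes were. The Etv4 call was lost without control replicate 2 (0.091) or 3 (0.093) or 70 min replicate 2 (0.0717) or 3 (0.134), and the Ets1 call at 4 h without any control array (0.0891, 0.0871 and 0.0944) or 4 h replicate 3 (0.105). Without the 3 arrays of highest median, 1 array is left at 70 min. The 70 min calls on Myc, Ets1, Etv5, Etv4 and Stat3, the remaining factor that rose, were then lost. Their log2 fold changes in that setting were -0.56, 0.45, 0.79, 0.23 and 0.25, in that order. With arrays centred the 70 min calls on Ets1 (limma adjusted p 0.0587) and Stat3 (0.123) were lost.

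Some markers of other cells moved at the same time. Of the 11 fibroblast markers, 5 fell at 70 min and none rose, where 7.81% of all genes were called as lower, among them Lum by 1.42 ± 0.10 (SE; adjusted p 6.3e-08) and Dcn by 1.05 ± 0.17 (0.000433), whereas Col1a1 differed by 0.01 (0.889). Their mean level was 8.59 to 8.67 in the 70 min arrays, 8.94 to 9.00 in control, 8.77 to 8.90 at 4 h and 8.95 to 9.05 at 8 h. None of the 12 cardiomyocyte markers was called at 70 min in limma (1 higher and 0 lower at an unadjusted p under 0.05), and their mean level was 4.87 to 5.20 against 4.91 to 5.08. Of 6 endothelial markers Tek fell (-0.88 ± 0.13, adjusted p 0.00013) and 3 lay above 0, where 14.6% of all genes were called. Of 4 smooth muscle markers Tagln rose (0.13 ± 0.04, adjusted p 0.0313), whereas Smtn differed by -0.18 and was not called. None of the 9 leukocyte markers was called by limma (1 higher and 1 lower at an unadjusted p under 0.05). The part of these markers in the changes of the E2f, cyclin and partner genes was not tested. Without the 3 arrays of highest median 1 array is left at 70 min, which is taken to vary like the other groups. E2f8 and Ccne1 then lost their calls (adjusted p 0.0525 and 0.113) with differences of 0.68 and 0.56, no smaller than with all arrays, and Ccnd1, Ccne2 and E2f7 kept theirs.

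The genes whose levels followed each member most closely were named by their Pearson correlation over the 12 arrays among 9082 genes at or above the median level, as a description, since the points share 4 groups of 3 arrays. For Mybl2 they were Mcm7 (0.98), a helicase subunit and E2F target, Adam12 (0.98) and Alyref (0.98). For Ccnd1 they were Smap2 (0.99), Nop56 (0.99), a nucleolar protein of ribosome assembly, and Ptpn9 (0.98). E2f8 was followed by Ctnnd2 (0.96), Gins3 (0.95), a replication factor, and Ppp1ca (0.94), and E2f7 by Pno1 (0.95), Golt1b (0.93) and Camk1d (0.93). Ccne1 was followed by Smim7 (0.96), Tmem214 (0.96) and Rab5if (0.96), Ccne2 by Acsl4 (0.96), Rasgrp3 (0.96) and Cxadr (0.95), and Hmga2 by Rars1 (0.97), Tuba1c (0.97) and Eogt (0.97). E2f1 and E2f3 were left out, as their group means spanned less than 0.5.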

How the data were processed

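Total RNA of 12 samples was amplified and biotin-labelled for whole-transcript arrays of 1 colour, according to the labels' protocols. Per the submitters' processing notes the authors used RMA and Affymetrix Expression Console 1.3.1.187; their table holds 36685 probes. No unit is stated, and the authors' values were read as log2 expression from their range (1.19 to 13.63). RMA equalises array distributions, which takes out any difference in total RNA per cell. Of 18511 probes with 1 gene symbol in the platform's annotation, the one of highest mean per gene was kept, which left 18166 genes. The model had group as its term and used all 12 arrays (limma 3.58.1, R 4.3.3; eBayes with trend, 8 residual degrees of freedom, two-sided), with Benjamini-Hochberg adjustment over all genes within each comparison. The number of arrays limits the precision (median SE 0.13). The calculation was tested on simulated data.

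The members and gene lists were chosen with earlier results of these data known. From each list, up to 4 higher and 4 lower called genes per comparison with control were named by size, with 14 further genes always named (those measured). Lum, Dcn, Col1a1, Tek, Tagln, Cenpf and Mki67 were named after their values were seen. Promoters came from RefSeq GRCr8. Alternatives were a replicate block, other variance priors, array weights, further quantile normalization or centring, the array median as covariate, the brighter genes, probe means, the compared groups alone, leaving out 3 arrays of high median, and leaving out each array. Figures were drawn with matplotlib 3.10.9.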

Additional observations from a re-analysis of the deposited data

Results flagged for a closer look

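These results stand out because the level at 1 time of SIN-1 differed from that at another, by the limma test of the difference itself. No time had a control of its own, so time in culture and SIN-1 cannot be told apart. From 70 min to 4 h the log2 level of Ccne2 differed by -0.77 ± 0.19 (SE; adjusted p 0.0149), that of Ccnd1 by -0.57 ± 0.07 (2.35e-05) and that of E2f3 by -0.46 ± 0.12 (0.0269). From 4 h to 8 h Mybl2 differed by -0.81 ± 0.11 (0.000294), E2f8 by -0.51 ± 0.13 (0.0414) and E2f7 by -0.49 ± 0.13 (0.0463). Between 70 min and 8 h Ccne2 differed by -1.28 ± 0.19 (0.000115), Ccnd1 by -0.70 ± 0.07 (1.38e-06), E2f7 by -0.67 ± 0.13 (0.00144), Ccne1 by -0.56 ± 0.13 (0.00533), E2f8 by -0.55 ± 0.13 (0.00814) and E2f1 by -0.42 ± 0.11 (0.0152). All values were lower at the later time. The calls from 4 h to 8 h on E2f7 and E2f8 were lost in 15 and 12 of 23 alternatives. Those from 70 min to 4 h on E2f3 and Ccne2 were lost in 8 and 4. Those between 70 min and 8 h on E2f1 and Ccne1 were lost in 4 and 1, and the other calls here were kept in all 23.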

How the results depend on the processing

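Of 18 called differences among the 9 genes, 9 kept their call in all 23 alternatives and 9 lost it in at least 1; the cause was not tested. At 70 min the count of called genes was 5 of 7, and 3 without the 3 arrays of highest median, which leaves 1 array at 70 min that is taken to vary like the other groups; the log2 fold changes of the lost E2f8 and Ccne1 were then 0.68 and 0.56. At 4 h it was 1, and 0 with eBayes without trend, with arrays centred or without those 3 arrays, but 2 with array weights or among the brighter genes. Between 70 min and 4 h it was 3, and 1 with the compared groups alone. Between 4 h and 8 h it was 3 of 9, and 1 with eBayes without trend, with arrays centred, without the 3 arrays or with the compared groups alone. With single arrays left out the counts ran from 3 to 6 (70 min), 0 to 1 (4 h), 0 to 0 (8 h), 1 to 3 (70 min to 4 h), 1 to 3 (4 h to 8 h) and 5 to 7 (70 min to 8 h).

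With the replicate number as a block the counts of called genes were 5, 1, 0, 3, 3 and 6 in the same order, so the block changed no count. The numbers were not taken to pair the arrays: correlations of same-numbered deviations ran from -0.32 to 0.24, 5 of 18 were over 0.1, and 4 of 12 arrays correlated best with their own number. Among the listed regulators and targets the block ended the calls on Cdk2 (adjusted p 0.0556) and Ccna2 (0.053) at 4 h.

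The sign turned in 11 cases, none of them called; ranges are over single arrays left out. Against control at 8 h these were E2f3 without 8 h replicate 2 (-0.076; range -0.076 to 0.13), E2f7 without control replicate 3 (-0.029) or 8 h replicate 2 (-0.072; range -0.072 to 0.15), E2f8 without control replicate 3 (0.046; range -0.12 to 0.046), Ccnd1 without 8 h replicate 1 (-0.020; range -0.020 to 0.037), and Ccne1 without control replicate 3 (0.012) or 8 h replicate 3 (0.12; range -0.19 to 0.12). Between 70 min and 4 h it was E2f8 with array weights (0.00093), centred arrays (0.020), or without 70 min replicate 1 (0.054) or 4 h replicate 2 (0.087; range -0.14 to 0.087).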
